A study of Mus musculus with 12 samples.

Results

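The tumour suppressor gene Trp53 and 9 genes of its pathway were followed in 12 mouse neuroendocrine thyroid carcinomas. The 10 genes were taken by symbol from count tables of 23284 genes, and all 10 passed the filter on low counts. They are Trp53 and its relative Trp73, the inhibitors Mdm2 and Mdm4, the Cdkn2a locus, the growth arrest targets Cdkn1a, Ccng1 and Btg2, and the cell death targets Bbc3 and Fas. The tumours were primary thyroid carcinomas of a genetically engineered mouse. In 7 of them the genotype label read Rb1/Trp53, and these are called RP-labelled here. In the other 5 it read Rb1/Trp53/Crebbp, and these are called RPC-labelled. Both groups thus carry an engineered Rb1 and Trp53, and the RPC label adds Crebbp, a histone acetyltransferase that is also a coactivator of p53. No source used here gives the alleles, the promoter driving any recombinase, the ages or whether each tumour came from its own mouse. The p-values therefore measure only the spread among these 12 libraries, part of which may be technical.

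The p53 protein is a transcription factor that is stabilised by DNA damage and by oncogenic signals. It switches on genes that stop the cell cycle and genes that promote cell death. Mdm2, itself a p53 target, marks p53 for degradation, Mdm4 masks its activation domain, and the Arf product of Cdkn2a blocks Mdm2. Many of its targets can also be transcribed through other factors.

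Gene counts ran from 9.11 M to 57.3 M in RP-labelled and from 9.14 M to 20.5 M in RPC-labelled tumours. Levels are given as CPM, the counts scaled to the size of each library after TMM, a method that sets libraries on a common scale. None of the 12 C cell and neuroendocrine markers looked at was at 0 in any tumour, and Calca stood at 19994 CPM or more. No macrophage, fibroblast or endothelial marker looked at was at 0 either, so presence alone does not bear out the neuroendocrine label. The level of the 12 neuroendocrine markers moved with the genotype label, as given beside the other cell markers. Crebbp averaged 54.6 CPM with the RP label and 53.9 CPM with the RPC label, and it was above 0 in all 12. A gene-level count cannot reveal a deleted exon, so neither the Crebbp nor the Trp53 count checks the genotype label. For the same reason the Trp53 values below are transcript levels of the locus and do not say which allele or which cell they come from.

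The upstream sequences of 4 members are shown because the results below turn on Trp53 and Btg2, whose groups did not overlap, and because Cdkn1a and Ccng1 are targets whose window holds a p53 motif. Each is the 250 bases before an annotated start, from RefSeq on GRCm38.p6, whereas the counts were made on mm9. Capitals mark matches to the p53 consensus decamer (in Trp53, Cdkn1a and Ccng1) or to the cAMP response element TGACGTCA (in Btg2), searched on both strands. The elements do not overlap one another. For Cdkn1a the window precedes the more upstream of its 2 annotated starts.
Trp53, chr11:69580109-69580358, plus strand: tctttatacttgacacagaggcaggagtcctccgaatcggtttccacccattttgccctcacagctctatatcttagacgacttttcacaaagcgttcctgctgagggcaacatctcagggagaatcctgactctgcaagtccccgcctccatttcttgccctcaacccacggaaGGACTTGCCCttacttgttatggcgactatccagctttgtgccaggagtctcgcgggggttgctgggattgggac
Btg2, chr1:134079156-134079405, minus strand: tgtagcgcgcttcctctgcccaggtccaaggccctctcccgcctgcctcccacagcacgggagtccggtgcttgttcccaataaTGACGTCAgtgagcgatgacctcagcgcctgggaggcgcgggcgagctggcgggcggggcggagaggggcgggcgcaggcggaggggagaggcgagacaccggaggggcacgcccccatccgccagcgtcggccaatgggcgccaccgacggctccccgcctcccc
Cdkn1a, chr17:29090729-29090978, plus strand: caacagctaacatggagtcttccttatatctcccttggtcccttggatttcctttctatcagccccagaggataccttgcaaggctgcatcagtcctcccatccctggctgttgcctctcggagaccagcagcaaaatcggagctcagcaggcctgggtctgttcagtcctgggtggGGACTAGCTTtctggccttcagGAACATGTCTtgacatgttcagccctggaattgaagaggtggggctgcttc
Ccng1, chr11:40755287-40755536, minus strand: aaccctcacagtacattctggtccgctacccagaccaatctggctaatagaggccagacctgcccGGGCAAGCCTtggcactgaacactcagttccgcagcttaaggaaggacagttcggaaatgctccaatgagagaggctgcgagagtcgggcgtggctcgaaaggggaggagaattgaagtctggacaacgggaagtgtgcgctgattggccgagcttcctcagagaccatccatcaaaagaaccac
The decamer starts at position -75 from the Trp53 start and at -185 from the Ccng1 start, and the Cdkn1a window holds 2 matches. Mdm2 also has a match, at -186. In all, 4 of the 16 windows of the 10 genes held the decamer, against 7.12% of 32536 windows of the same length. The cAMP response element lay at -166 in Btg2 and in no other member's window, and it was found in 1.56% of all windows. A match describes the letters of a window and is not a measured binding site.

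Of the 10 members 5 were called between the genotypes, meaning an adjusted p under 0.05 in edgeR's quasi-likelihood test with Benjamini-Hochberg adjustment over 14989 genes. Trp53, Btg2, Bbc3 and Fas fell in the RPC-labelled tumours and Cdkn2a rose. Of all genes tested 18.3% were called, 8.61% as lower and 9.64% as higher. The values of the groups did not overlap for 2 members, Trp53 and Btg2, and for 6.26% of all genes tested. The members' log2 fold changes, also called log2 differences (RPC-labelled minus RP-labelled), ran from -1.16 to 0.94 with a median of -0.33, while the median of all tested genes was -0.02. All 5 arrest and cell death targets had a log2 fold change below 0, and 3 of them were called, whereas Mdm2, a target and inhibitor at once, lay above 0. With 1 tumour left out, between 2 and 6 of the 10 members were called. For the RP label, the number was 2 without replicate 4 and 3 without replicate 2 or 6. It stayed at 5 without replicate 1, 5 or 7 and rose to 6 without replicate 3. For the RPC label, omitting replicate 1 or 2 gave 2, replicate 5 gave 3, and replicate 3 or 4 gave 4. Of all genes, 10.4% were called without RP-labelled replicate 4. That share was 8.73% and 7.08% without the first and second RPC-labelled tumours. Without RP-labelled replicates 2 and 6 it was 11.04% and 11.3%, and without replicate 3 it was 23.5%. It was 22.3%, 18.6% and 14.1% without RP-labelled replicates 1, 5 and 7. Without RPC-labelled replicates 3 and 5 the share was 11.8% and 12.04%, but without replicate 4 it was 21.5%. In every fit without 1 tumour that called fewer than 5 members, 5 had an unadjusted p under 0.05 by edgeR.

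**Figure D1:**
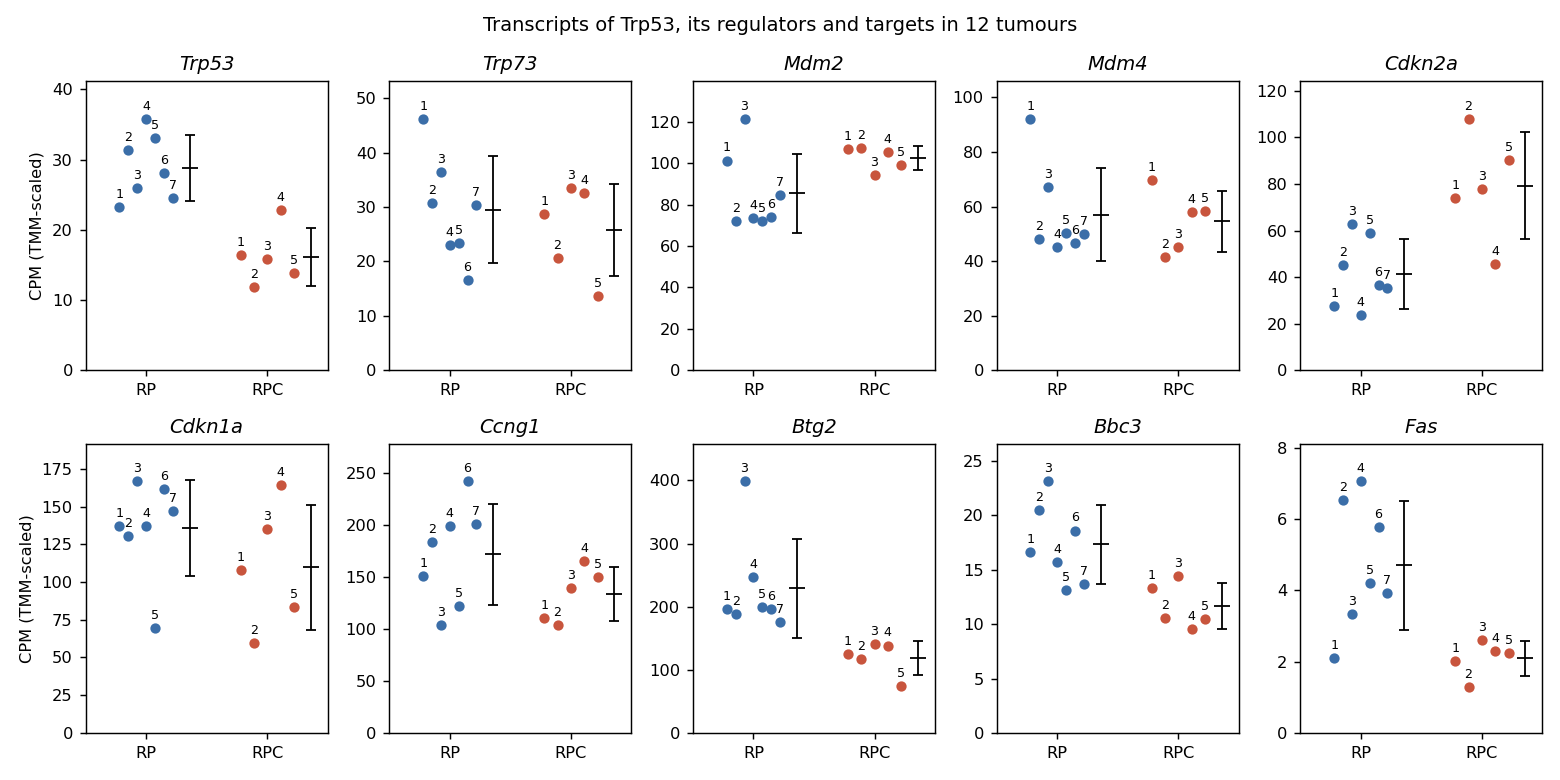
TMM-scaled CPM (y axis, from 0) of the 10 genes in each tumour, numbered by replicate, with the RP-labelled tumours in blue and the RPC-labelled in red; the bar beside each group is the mean with its SD (n = 7 and n = 5). The groups are apart for Trp53 and Btg2, and 4 of the 5 RPC-labelled tumours exceed every RP-labelled tumour for Cdkn2a.

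Trp53 transcripts in the RP-labelled tumours ran from 23.2 CPM in replicate 1 through a median of 28.1 to 35.8 CPM in replicate 4. In the RPC-labelled tumours they stood at 16.4, 11.8, 15.8, 22.8 and 13.8 CPM in replicates 1 to 5. All 5 RPC-labelled tumours lay below every RP-labelled tumour, although RPC-labelled replicate 4 came close to RP-labelled replicate 1. Groups apart in this direction were seen for 2.64% of the genes tested. The log2 fold change was -0.84 ± 0.17 (SE; edgeR adjusted p = 0.00918), a fall of 1.79-fold, and it stayed called in all 12 fits that left out 1 tumour (-0.99 to -0.77). Trp53 varied little among RP-labelled tumours, with a coefficient of variation of 16.3% where the median over tested genes was 22.5%.

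Trp73 encodes p73, a p53 relative with a similar DNA-binding domain that is itself switched on by E2F factors. It ran from 16.7 through 30.3 to 46.3 CPM in RP-labelled tumours and stood at 28.7, 20.7, 33.4, 32.6 and 13.7 CPM in RPC-labelled replicates 1 to 5. The groups overlapped, and the log2 difference of -0.19 ± 0.26 (SE) was not called (edgeR adjusted p = 0.629). In counts, the RP-labelled medians of Trp53 and Trp73 thus lay close together, but per length of exon Trp73 was lower, as given below. The remaining relative, Trp63, which marks basal and squamous epithelium, was rarer still at 3.54 to 10.1 CPM in RP-labelled and 1.01 to 11.2 CPM in RPC-labelled tumours (adjusted p = 0.530). By limma voom the log2 difference of Trp63 went from -0.48 to -1.19 and was called (adjusted p = 0.0429). Limma voom called 42.4% of all genes tested, against 18.3% by edgeR.

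The 5 genes whose log2 CPM was most like that of Trp53 over the 12 tumours were Smad6, Lta, Rwdd3, Cyp2j6 and Akr1c14, with Pearson r from 0.957 to 0.979 among 13281 genes ranked. Smad6 is an inhibitor of BMP signalling and Lta encodes the lymphocyte cytokine lymphotoxin alpha. Smad6 went from 4.36 to 10.5 CPM in RP-labelled tumours to 1.01 to 3.91 CPM in RPC-labelled tumours. Lta went from 1.90 to 11.4 CPM down to at most 1.69 CPM and was at 0 in at least 1 RPC-labelled tumour. All 5 genes were called as lower in RPC-labelled tumours, and the likeness rests in part on that shared difference between the groups.

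The inhibitors did not pass the test. Mdm2, the main ubiquitin ligase of p53, stood at 71.8 to 121 CPM with a median of 74.0 in RP-labelled tumours. The RPC-labelled values were tightly grouped at 107, 107, 94.2, 105 and 99.1 CPM in replicates 1 to 5, a coefficient of variation of 5.63% against 22.3% in RP-labelled tumours. In 5 of the 7 RP-labelled tumours Mdm2 was below every RPC-labelled tumour, while RP-labelled replicates 1 and 3 lay at 101 and 121 CPM. The log2 fold change was 0.26 ± 0.14 (SE; edgeR adjusted p = 0.183). Without RP-labelled replicate 3 it was 0.37 and was called by edgeR (adjusted p = 0.0248), in a fit that called 23.5% of all genes. Limma voom called it with all tumours (0.39, adjusted p = 0.00577), as it did 42.4% of all genes. Mdm4, the relative of Mdm2 that lacks effective ligase activity, had 45.2 to 92.2 CPM with a median of 49.8 in RP-labelled tumours. In RPC-labelled replicates 1 to 5 it had 69.6, 41.6, 45.3, 57.9 and 58.4 CPM. Its log2 fold change was -0.06 ± 0.19 (SE; edgeR adjusted p = 0.844), and the highest value in each group was that of replicate 1.

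Cdkn2a was the member that rose. The locus encodes p16Ink4a, an inhibitor of the kinases that inactivate Rb, and p19Arf, which frees p53 from Mdm2. The 2 products share exons, so a count per gene does not separate them. RP-labelled tumours held 23.5 CPM in replicate 4, a median of 36.7 and 62.8 CPM in replicate 3. RPC-labelled replicates 1 to 5 held 74.2, 108, 77.8, 45.7 and 90.3 CPM, and all but replicate 4 exceeded every RP-labelled tumour. The log2 fold change was 0.94 ± 0.26 (SE; edgeR adjusted p = 0.0284), a rise of 1.91-fold. Leaving out any of 6 tumours (replicates 4 and 6 with the RP label, replicates 1, 2, 3 and 5 with the RPC label) ended the call, with adjusted p values of up to 0.0915 and log2 fold changes from 0.78 to 0.96. Proliferation genes moved beside it: 10 of 12 E2F and proliferation genes rose and none fell. That count was 3 without RPC-labelled replicate 2 and 6 without RPC-labelled replicate 1, in fits that called 7.08% and 8.73% of all genes. In these fits 10 and 11 of the 12 genes had an unadjusted p under 0.05 by edgeR. Their summed level was 643 to 1448 CPM in RP-labelled and 987 to 2893 CPM in RPC-labelled tumours. RPC-labelled replicate 2 had the highest and replicate 4 the lowest of both measures in their group. RP-labelled replicate 3 did not follow this order, with the lowest proliferation sum and the highest Cdkn2a of its group. With the proliferation score as a covariate, chosen after seeing the data, the Cdkn2a log2 fold change was 0.37 (edgeR adjusted p = 0.696). That score ran from -1.26 to 0.449 in RP-labelled and from -0.305 to 1.90 in RPC-labelled tumours, so score and label cannot be told apart well.

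Among the arrest targets Btg2 moved the most. Btg2 encodes an antiproliferative protein that acts with the deadenylase complex, and besides p53 it responds early to growth factors and cAMP. Its RP-labelled values ran from 176 CPM in replicate 7 through a median of 196 to 398 CPM in replicate 3. The RPC-labelled values were 124, 118, 140, 138 and 74.1 CPM in replicates 1 to 5, all below every RP-labelled tumour. The log2 fold change was -0.94 ± 0.22 (SE; edgeR adjusted p = 0.0178), a fall of 1.92-fold. The call held in all 12 fits without 1 tumour, with a log2 fold change of -0.75 where RP-labelled replicate 3 was left out. Whether the cAMP response element in the Btg2 window printed above has a part in this fall was not tested.

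Cdkn1a, which encodes p21, the cyclin-dependent kinase inhibitor that carries out much of the p53 arrest, did not pass the test. It ran from 69.7 CPM in RP-labelled replicate 5 through a median of 137 to 167 CPM in replicate 3. RPC-labelled replicates 1 to 5 had 108, 59.4, 135, 164 and 83.2 CPM, which spans nearly the same range. The log2 fold change was -0.30 ± 0.25 (SE; edgeR adjusted p = 0.404). In each group the tumour with the lowest Cdkn1a, RP-labelled replicate 5 and RPC-labelled replicate 2, had the highest summed proliferation level, at 1448 and 2893 CPM. Ccng1, which encodes cyclin G1, an Mdm2 partner and one of the most regular p53 targets, had 103 to 242 CPM with a median of 184 in RP-labelled tumours. RPC-labelled replicates 1 to 5 had 111, 104, 139, 165 and 150 CPM, inside the RP-labelled range, with a log2 difference of -0.36 ± 0.20 (SE; edgeR adjusted p = 0.225). By limma voom it was -0.56 and was called (adjusted p = 0.0137), as were 42.4% of all genes.

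Both cell death targets fell. Bbc3 encodes Puma, a BH3-only protein that triggers the mitochondrial route of apoptosis. It ran from 13.1 through 16.7 to 23.1 CPM in RP-labelled tumours and stood at 13.3, 10.5, 14.4, 9.59 and 10.4 CPM in RPC-labelled replicates 1 to 5. In 3 of 5 RPC-labelled tumours it was below every RP-labelled tumour, and the log2 fold change was -0.57 ± 0.17 (SE; edgeR adjusted p = 0.0372). The Bbc3 call was lost in 7 of the 12 fits without 1 tumour, those that left out replicate 2, 4 or 6 with the RP label or replicate 1, 2, 4 or 5 with the RPC label. Fas, the death receptor of lymphocytes and many epithelia, was the least abundant member, with as few as 14 counts in RPC-labelled replicate 2. RP-labelled tumours held 2.11 CPM in replicate 1, a median of 4.20 and 7.06 CPM in replicate 4, and RPC-labelled replicates 1 to 5 held 2.02, 1.28, 2.59, 2.31 and 2.24 CPM. RP-labelled replicate 1 lay inside the RPC-labelled range and the other 6 above it. The log2 difference of -1.16 ± 0.31 (SE; edgeR adjusted p = 0.0255) is a fall of 2.24-fold, and its call was lost when replicate 2 or 4 with the RP label, or replicate 1 or 2 with the RPC label, was left out.

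Markers of some other cells moved with the labels. In such bulk samples, fewer cells of a type and less RNA per cell cannot be told apart. C cell and neuroendocrine markers, those of the labelled tumour type, summed to 96683 to 234412 CPM (median 205633) in RP-labelled and 26521 to 139789 CPM (median 89933) in RPC-labelled tumours. Calca, the most abundant of them, alone ran from 19994 to 215747 CPM and so made up much of these sums. The lower sum did not stand for all 12 markers, of which edgeR called 3 as higher and none as lower, or 3 as higher and 3 as lower without RPC-labelled replicate 4. All 11 adipocyte markers fell, with summed levels of 95.8 to 2127 CPM in RP-labelled and 75.3 to 156 CPM in RPC-labelled tumours and only Lep at 0 in any. In every fit without 1 tumour, all 11 had an unadjusted p under 0.05 by edgeR, but the number passing adjustment changed. It was 5 without RP-labelled replicate 4 or RPC-labelled replicate 3, and 6 without RP-labelled replicate 2 or 6. It was 1 without RPC-labelled replicate 1 and 0 without RPC-labelled replicate 2, in fits that called 8.73% and 7.08% of all genes. Follicular markers summed to 2040 to 9654 CPM in RP-labelled and 394 to 5963 CPM in RPC-labelled tumours, where 2 of 12 tested members fell (8 without RPC-labelled replicate 4) and Duoxa2 and Slc26a4 were at 0 in some tumours. Tg, the most abundant of these markers, alone ran from 26.2 to 8998 CPM. The lymphocyte list summed to 18.0 to 50.6 CPM against 7.73 to 11.8 CPM without overlap, although 7 of its 10 genes were at 0 in some tumour. Of the 3 that could be tested, edgeR called 1 as lower. Macrophage markers, at 312 to 1465 CPM against 251 to 638 CPM, and fibroblast markers, at 569 to 3411 CPM against 490 to 1865 CPM, overlapped between the groups. Endothelial markers stood at 84.6 to 183 CPM against 48.4 to 143 CPM, and 2 of 8 fell, a call lost for both without any of RP-labelled replicates 2, 4 and 6 or RPC-labelled replicates 1, 2 and 3 (edgeR, 4 of 8 at an unadjusted p under 0.05 in each of these fits). RP-labelled replicate 3, the tumour with the highest Btg2, Bbc3, Cdkn1a, Cdkn2a and Mdm2 of its group, also had the highest macrophage, fibroblast and endothelial sums. Skeletal muscle markers stood at 8.12 to 3895 CPM in RP-labelled and 12.5 to 3825 CPM in RPC-labelled tumours, and red blood cell markers at 0.697 to 18.8 CPM and 3.84 to 12.2 CPM, with no member called in either list. The part of these cells in the members' differences was tested only as far as the fits with marker scores go.

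When the follicular score entered the fit, edgeR called none of the 10 members (1 had an unadjusted p under 0.05), and Trp53 went to -0.28 ± 0.21 (SE; adjusted p = 0.791) and Cdkn2a to 0.02 ± 0.34 (SE; adjusted p = 0.992). Btg2 was at -1.03 ± 0.36 (SE; adjusted p = 0.431) and Bbc3 at -0.63 ± 0.30 (SE; adjusted p = 0.569), neither of them called. That fit called 3 genes in all. The follicular score itself moved with the label, from -0.0978 to 0.842 in RP-labelled and from -1.56 to -0.0589 in RPC-labelled tumours. Score and label therefore cannot be told apart well in that fit. With the adipocyte score none was called either (4 at an unadjusted p under 0.05), Fas went to -0.39 ± 0.28 (SE; adjusted p = 0.450) and Btg2 was at -1.18 ± 0.28 (SE; adjusted p = 0.0785). This score also moved with the label, from -0.689 to 1.59 in RP-labelled and from -0.979 to -0.431 in RPC-labelled tumours. The stromal and immune score left Trp53 and Cdkn2a called (adjusted p = 0.0323 and 0.0312) and Btg2, Bbc3 and Fas not called, with log2 fold changes of -0.67, -0.46 and -1.08 (adjusted p = 0.118, 0.148 and 0.0780). That fit called 11.9% of all genes, and 5 members had an unadjusted p under 0.05 by edgeR. Fas ran beside the adipocyte markers among RP-labelled tumours: replicates 2, 4 and 6 had the 3 highest adipocyte sums and the 3 highest Fas levels. Against RP-labelled replicates 1, 3 and 5 alone, the 3 tumours of that group with the lowest adipocyte sums, the Fas log2 fold change was -0.63 ± 0.34 (SE; adjusted p = 0.350), while Trp53 was at -0.78 and Btg2 at -1.17. None of the 10 was called there, where edgeR called 40 genes and 3 members had an unadjusted p under 0.05.

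**Figure D2:**
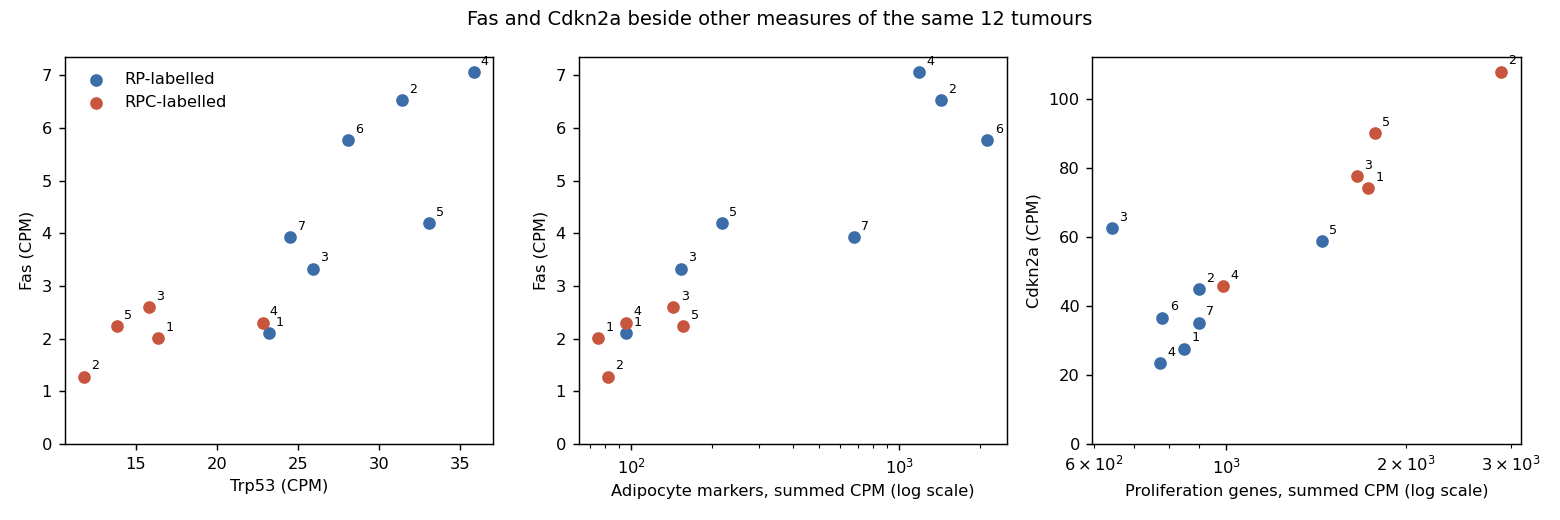
Levels in the 12 tumours, numbered by replicate within group, of Fas against Trp53 (both CPM), Fas against the summed CPM of adipocyte markers, and Cdkn2a against the summed CPM of proliferation genes (log x axes in the last pair). RP-labelled replicates 2, 4 and 6 hold the highest Fas and adipocyte values, and RPC-labelled replicate 2 the highest Cdkn2a (108 CPM) and proliferation sum (2893 CPM).

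**Figure D3:**
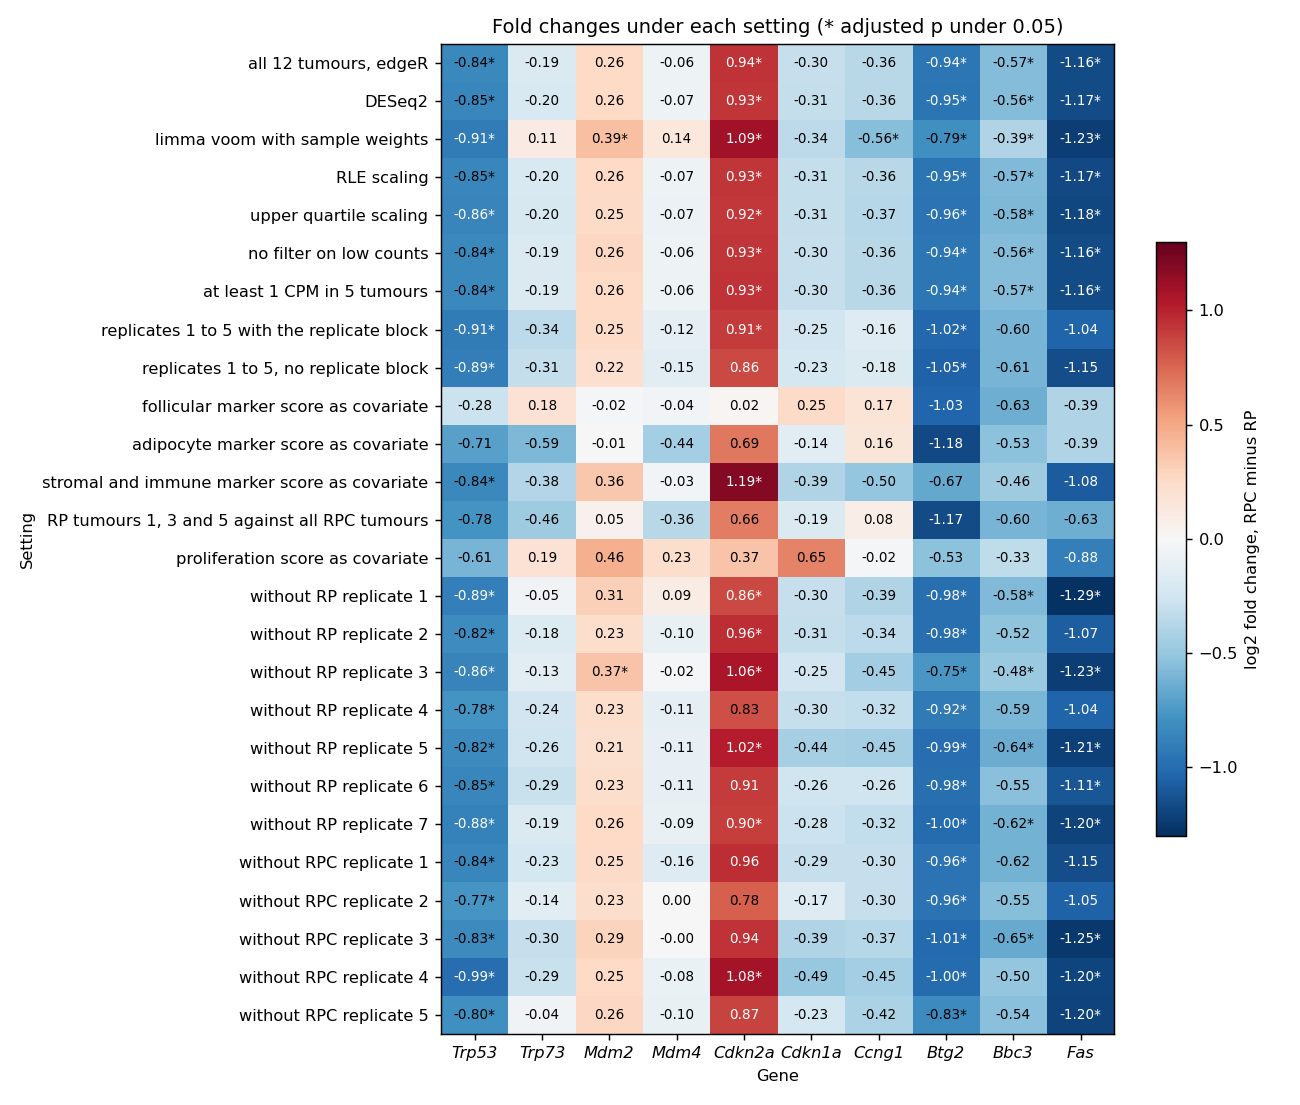
Log2 fold change (RPC-labelled minus RP-labelled) of each gene (columns) under each fit (rows), written in the cell and coloured from blue (lower) to red (higher), with a star for an adjusted p under 0.05. Trp53 and Btg2 hold their stars in every row that leaves out 1 tumour, and no member has one with the follicular, adipocyte or proliferation score as a covariate.

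Levels were set side by side per kb of exon, with exon lengths from GENCODE M21, which is not the annotation that was counted. In RP-labelled tumours the order of mean CPM per kb was Btg2 (83.4 ± 28.4 SD, n = 7), Cdkn1a (49.9), Ccng1 (48.8), Cdkn2a (35.3), Mdm2 (27.2), Trp53 (15.4), Bbc3 (9.55), Trp73 (5.55), Mdm4 (5.25) and Fas (2.62). Neighbours from Btg2 to Mdm2 did not differ beyond 1 SD of each, although Btg2 exceeded Cdkn1a in 7 of 7 tumours, and nor did Trp73 and Mdm4. The steps from Mdm2 to Trp53, from Trp53 to Bbc3, from Bbc3 to Trp73 and from Mdm4 to Fas were larger than that, with the first gene higher in 7 of 7 tumours at each. In RPC-labelled tumours Cdkn2a stood first, at 67.6 ± 19.6 (SD, n = 5) CPM per kb, and Btg2 followed at 43.4 ± 9.80 (SD, n = 5). These 2 did not differ beyond 1 SD of each, and Cdkn2a was the higher in 4 of 5 tumours. Of the other neighbours there, Mdm2 and Trp53 were apart by that measure, as were Trp73 and Fas.

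**Figure D4:**
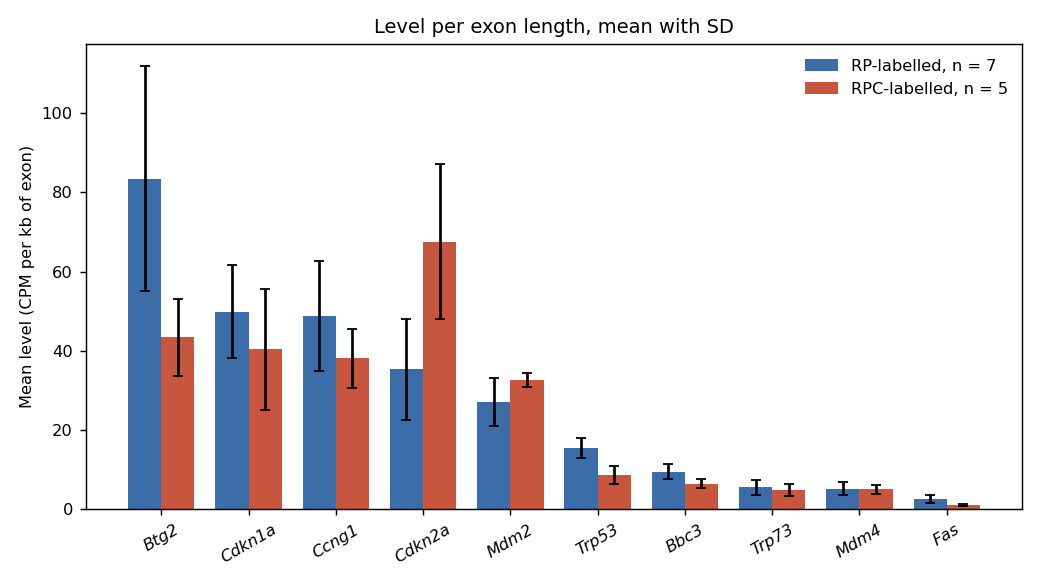
Mean CPM per kb of exon with SD (y axis, from 0) of the 10 genes in RP-labelled (blue, n = 7) and RPC-labelled tumours (red, n = 5), ordered by the RP-labelled mean. Btg2 leads in the RP-labelled tumours at 83.4 and Cdkn2a in the RPC-labelled tumours at 67.6.

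Whether target transcripts vary with Trp53 transcripts among tumours of 1 genotype was looked at within the 7 RP-labelled tumours, over 9 relations of log2 CPM. None passed after Benjamini-Hochberg adjustment over the 9, and by Pearson's r 1 had an unadjusted p under 0.05. Fas gave Pearson r = 0.80 (exact two-sided permutation p = 0.0308, adjusted 0.219) and Spearman rho = 0.86 (exact permutation p = 0.0238, adjusted 0.214). Without replicates 4 and 1, the farthest from the median Trp53 level, its r was 0.51. Mdm2 gave r = -0.71 (exact permutation p = 0.0730, adjusted 0.219) and rho = -0.79 (exact permutation p = 0.0480, adjusted 0.216), and r was -0.65 without those tumours. Mdm4 gave r = -0.71 (exact permutation p = 0.0708, adjusted 0.219) and rho = -0.68 (exact permutation p = 0.110, adjusted 0.313), and r = -0.40 without them. For the other 6 genes r ran from -0.60 (Trp73) to 0.12 (Ccng1), with Btg2 and Cdkn2a near 0. Both of these values rest on single tumours, since leaving out 1 tumour moved r over -0.17 to 0.68 for Btg2 and over -0.31 to 0.61 for Cdkn2a. The 5 RPC-labelled tumours are too few for such a relation, and the groups were not pooled because Trp53 separates them.

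Further genes of the pathway were taken from 6 lists chosen by function. Of their 71 tested genes 7 rose and 2 fell, 12.7% against the 18.3% of all genes, and their median log2 fold change was 0.04 against -0.02. The 39 further p53 targets split into 4 rises and 2 falls with a median of -0.13, and 24 of them lay below 0. Among 10 arrest and growth control targets Zfp365 rose 1.87-fold (adjusted p = 0.0144) and the mitotic gene Gtse1 1.83-fold (0.0240), and the phosphatase gene Ptprv fell 1.89-fold (0.0461, all edgeR). Ptprv lost its call in 10 of the 12 fits without 1 tumour, all but those without RP-labelled or RPC-labelled replicate 3, and Gtse1 without RPC-labelled replicate 1 or 2.

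Of 14 further tested apoptosis targets 2 rose and none fell. Bcl2l11, which encodes the BH3-only protein Bim, averaged 17.6 ± 2.11 CPM under the RP label (SD, n = 7) and 28.4 ± 2.84 CPM under the RPC label (SD, n = 5). Its groups did not overlap, as for 3.62% of genes in this direction, and its log2 difference of 0.69 ± 0.11 (SE; edgeR adjusted p = 0.00342) was called without any 1 tumour. Apaf1, the scaffold of the apoptosome, rose 1.46-fold (adjusted p = 0.0401), a call lost in 9 of the 12 fits without 1 tumour, all but those that left out replicate 1 or 3 with the RP label or replicate 4 with the RPC label. Of 15 tested repair and metabolism targets the epoxide hydrolase gene Ephx1 alone was called, falling 1.91-fold (adjusted p = 0.0379), and it lost the call in 8 of those 12 fits, all but those that left out replicate 1, 3 or 5 with the RP label or replicate 4 with the RPC label. Sco2 was listed at 0 in all tumours.

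Upstream of p53, 2 of 16 kinases and cofactors rose. Chek1, the checkpoint kinase of stalled replication, rose 1.60-fold (edgeR adjusted p = 0.0186), a call lost without RPC-labelled replicate 2. Ppp1r13l, which encodes the p53 inhibitor iASPP, rose 1.55-fold (adjusted p = 0.0300), a call lost in 7 of the 12 fits, leaving out replicate 2, 4 or 7 with the RP label or replicate 1, 2, 3 or 5 with the RPC label. For Ep300, the paralogue of Crebbp, the log2 difference was 0.29 ± 0.17 (SE; edgeR adjusted p = 0.252). Limma voom, which called 42.4% of all genes, gave 0.50 and a call (adjusted p = 0.00547). The log2 difference of Crebbp by edgeR was -0.02 ± 0.20 (SE; adjusted p = 0.957). Of 10 ligases and stability factors 1 rose, Trim24, a ubiquitin ligase of p53, with a mean of 44.6 ± 3.49 CPM under the RP label (SD, n = 7) and 65.1 ± 10.2 CPM under the RPC label (SD, n = 5). The Trim24 groups did not overlap (edgeR adjusted p = 0.00790) and the call held without any 1 tumour. None of the 6 genes in the list of p53 relatives and other kinase inhibitors was called by edgeR. Of these Cdkn1b, which encodes p27, had the smallest p, at 169 ± 9.45 CPM (SD, n = 7) and 201 ± 24.6 CPM (SD, n = 5) with an adjusted p of 0.0643. Cdkn1b was called by DESeq2 (adjusted p = 0.0222) and limma voom (0.0347), which called 26.6% and 42.4% of all genes.

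**Figure D5:**
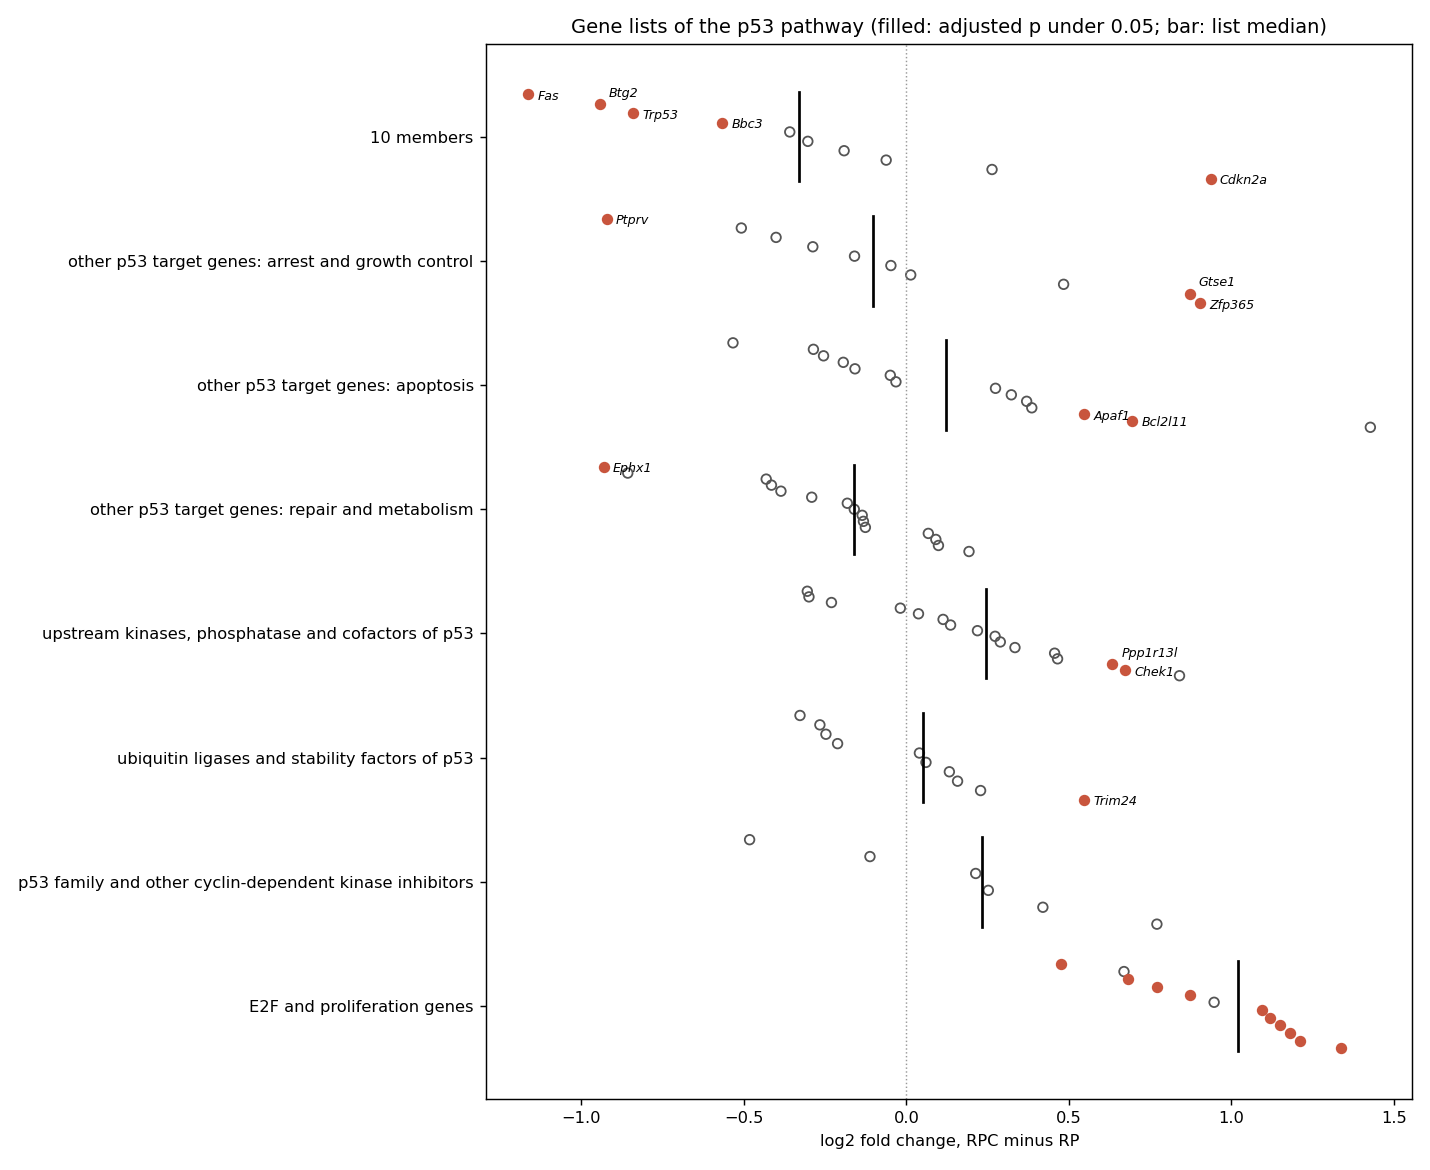
Log2 fold changes (RPC-labelled minus RP-labelled, x axis) of every tested gene in the 10-gene set, in 6 further lists of the pathway and in the proliferation list (rows, points spread vertically by rank), filled where the adjusted p is under 0.05, with a bar at each list's median. The bar of the 10 genes sits at -0.33, and 10 of 12 proliferation genes are filled and above 0.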

How the data were processed

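Messenger RNA was sequenced after oligo(dT) selection from 12 tumours, per the labels' protocols. Per gene symbol, the authors deposited raw counts, made on mm9 with bcl2fastq 1.8.2, TopHat2 2.0.12 and HTSeq 0.6.1, per the submitters' processing notes. No source used here gives the strand setting or the annotation. In RefSeq, 3 predicted genes, none of them in the count tables, overlap Trp73 or Mdm4. The 5 summary rows of the counter were left out, among them reads assigned to no counted feature (13.1% to 17.6% of a table). One count was worth 0.0174 to 0.110 CPM before scaling. Every 2 libraries of 1 group differed by more than sampling noise (chi-square per degree of freedom at least 25.6).

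From the deposited counts, genes were kept by filterByExpr (minimum count 10), scaled by TMM and tested with edgeR 4.0.16 (robust quasi-likelihood F test, R 4.3.3) without covariates. The fit was tested on simulated data. The standard error is the log2 fold change divided by the square root of F. Log2 CPM used a prior count of 2. Alternatives were limma 3.58.1 voom with sample weights, DESeq2 1.42.0, other scalings and filters, marker scores (means of z-scored log2 CPM) as covariates, replicates 1 to 5 with a block, and leaving out tumours. The proliferation score and the counts per marker list without single tumours were added after seeing the data. Promoters came from RefSeq (GRCm38.p6), where all 10 symbols matched. Python 3.11.15, scipy 1.17.1 and matplotlib 3.10.9 were used.

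The members and lists were chosen with earlier results of these data known. Besides the 10 members, genes were named by rule: up to 4 called genes of each list with the smallest p, or the 1 with the smallest p where none was called, Crebbp, Ep300 and Trp63, the 5 genes (mean of 1 CPM or more) most like Trp53, and the most abundant marker. Lep, Duoxa2, Slc26a4 and Sco2, named as being at 0, and the genes of the closing observations lie outside it. The 4 called proliferation genes with the smallest p, Mcm6, Mcm2, Plk1 and Mki67, are counted with their list.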

Additional observations from a re-analysis of the deposited data

Results flagged for a closer look

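In 2 of the 20 groups of values looked at, 1 tumour lay apart from the rest of its group by Dixon's test, where chance gives about 1 in 20. Cdkn1a in RP-labelled replicate 5 was at 69.7 CPM, and the other RP-labelled tumours were at 130.7 to 167 CPM. Btg2 in RP-labelled replicate 3 was at 398 CPM, and the others were at 176 to 248 CPM.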

How the results depend on the processing

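The number of genes called was 2736 with all tumours, 6352 with limma voom, 1777 with the stromal and immune score, 94 with the adipocyte score, 3 with the follicular score, 20 with the proliferation score, 40 with RP-labelled replicates 1, 3 and 5 alone and 1074 to 3510 when single tumours were left out. The members called were 5 of 10, then 2 with the stromal score and 0 with the follicular, adipocyte and proliferation scores and with RP-labelled replicates 1, 3 and 5 (edgeR; 1, 4, 3 and 3 at an unadjusted p under 0.05), and 2 to 6 without single tumours. The further pathway genes called were 9 of 71, then 15 with DESeq2, 34 with limma voom, 1 with the adipocyte score, 0 with the follicular and proliferation scores and with RP-labelled replicates 1, 3 and 5 (edgeR; 3, 6 and 10 at an unadjusted p under 0.05), and 3 to 14 without single tumours. Tumour numbers were not taken to pair the samples: deviations of same-numbered tumours correlated at -0.056 to 0.159, and RP-labelled tumour 1 alone correlated best with its own number. So few numbers cannot exclude that tumours of the same number were handled together. On replicates 1 to 5 the replicate block gave 463 genes, 3 members and 1 further pathway gene, against 868, 2 and 3 without the block. Log2 fold changes of opposite sign were seen only for members not called: Trp73 (0.11 with voom, 0.18 with the follicular and 0.19 with the proliferation score), Mdm4 (0.14 with voom, 0.23 with the proliferation score, -0.16 to 0.0941 without single tumours), Mdm2 (-0.0169 with the follicular and -0.00828 with the adipocyte score), Cdkn1a (0.25 with the follicular and 0.65 with the proliferation score) and Ccng1 (0.17 with the follicular score, 0.16 with the adipocyte score and 0.0836 with RP-labelled replicates 1, 3 and 5). The fits on fewer tumours have less power by construction. The follicular, adipocyte and proliferation scores moved with the label, so those fits cannot tell score and label apart well. For the others the cause was not tested. No relation with Trp53 passed with RLE scaling, a prior count of 0.5 or any 1 tumour left out. Depth limits Fas, with 14 counts in 1 tumour.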

Other observations

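Kinase inhibitor genes related to Cdkn2a and Cdkn1a, chosen after their values were seen, did not pass edgeR's test with all tumours. Cdkn2b, which lies beside Cdkn2a and encodes p15, had 6.34 to 13.8 CPM in RP-labelled and 8.26 to 13.5 CPM in RPC-labelled tumours, which differed by 0.42 ± 0.21 on the log2 scale (SE; edgeR adjusted p = 0.172). It was called by limma voom (0.56, adjusted p = 0.00751), by edgeR without RP-labelled replicate 3 (0.60, adjusted p = 0.0192) and by edgeR with the stromal and immune score (0.84, adjusted p = 0.0142). These fits called 42.4%, 23.5% and 11.9% of all genes. Like Cdkn2a, Cdkn2b was highest among RP-labelled tumours in replicate 3 and lowest among RPC-labelled tumours in replicate 4. Cdkn2d, which encodes p19Ink4d, was rarer at 1.79 to 4.13 CPM against 2.75 to 6.14 CPM (log2 fold change 0.77 ± 0.28 SE; edgeR adjusted p = 0.0736). It was called by limma voom (0.64, adjusted p = 0.0477) and by edgeR without RP-labelled replicate 5 (0.96, adjusted p = 0.0233), which called 42.4% and 18.6% of all genes. Its highest tumours were RP-labelled replicate 5 and RPC-labelled replicate 2, the tumours with the highest proliferation sums of their groups. Cdkn2c, which encodes p18, was far more abundant at 76.1 to 190 CPM and 92.5 to 172 CPM (log2 fold change -0.11 ± 0.21 SE; adjusted p = 0.732), with the same 2 tumours highest. Pmaip1, which encodes the BH3-only protein Noxa, had the largest log2 fold change of the apoptosis targets, 1.43 ± 0.53 (SE; edgeR adjusted p = 0.0755), and was not called. DESeq2, which called 26.6% of all genes, gave it an adjusted p of 0.0395.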
